A study of Homo sapiens with 30 samples.

Results

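Knockout 2 (KO2) is one of the 2 RBPMS knockout lines of 5637, a human urothelial carcinoma cell line from the bladder, and it was compared with its own control group (WT2). The comparison holds 6 of the 30 libraries of the series, chosen by their labels as 3 KO2 libraries and 3 WT2 libraries, and all genes of the count table were considered. The labels give KO2 the genotype RBPMS-KO and WT2 the genotype WT. The study describes RBPMS knockouts made with 2 different sgRNAs, and its discussion describes populations expanded from single clones over many passages, so KO2 stands for 1 clone and any trait that this clone carried besides the edit is part of the comparison. Its figures call the controls sgCtrl, and whether WT2 carried a control sgRNA was not settled from the sources used here. The labels do not say that the 3 libraries of a group came from separate cultures, so the p-values measure the spread between these libraries. The other knockout (KO1) and its 3 controls (WT1) share no library with KO2 and WT2 and were used to test whether a change differed between the knockouts. These other libraries came from the same line, with the same genotype labels.

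RBPMS is an RNA-binding protein with an RNA recognition motif that takes part in splicing and mRNA stability, and it is best known from smooth muscle and other contractile cells. Urothelial carcinoma lines range from luminal cells, which keep genes of the differentiated bladder lining, to basal and mesenchymal-like cells, which carry more genes of matrix, migration and inflammation. Genes that many cells use together, such as the targets of the transcription coactivator YAP or the ligands of the EGF receptor, are therefore described below as groups.

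The total count per library lay between 50776968 and 65742249 in KO2 and between 54644347 and 69723937 in WT2. Levels are given as CPM, the count of a gene relative to the total of its library after TMM scaling, and changes as log2 fold changes with their standard errors (SE). RBPMS itself was at 20.7, 18.9 and 21.3 CPM in the KO2 libraries and at 44.2, 42.8 and 42.4 CPM in the WT2 libraries. All 3 KO2 libraries were below all 3 WT2 libraries, and RBPMS RNA was still present in each of them. Its level fell by 1.09 on the log2 scale (SE 0.06, adjusted p = 5.07e-08). The RNA level does not measure the protein, which the paper assessed by western blot in its knockout cells. Its paralog RBPMS2 was at 8.90 CPM in KO2 and 9.18 CPM in WT2, with overlapping groups (adjusted p = 0.783). The epithelial adhesion gene CDH1 was expressed in both groups, with a mean of 222 CPM in KO2 and 222 CPM in WT2. Of the markers of other cell types, 3 of 15 leukocyte markers passed the filter on low counts, with a summed level of 2.98 to 3.11 CPM in KO2 and 0.967 to 1.72 CPM in WT2. For 11 endothelial markers the sum was 2.55 to 3.61 against 2.46 to 2.62 CPM. For 14 fibroblast and smooth muscle markers it was 75.6 to 78.6 against 68.7 to 72.0 CPM, most of it from COL1A1 at a mean of 49.7 and 50.6 CPM. For 13 neuronal and neuroendocrine markers it was 101 to 108 against 86.8 to 89.1 CPM.

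KO2 differed from WT2 in a large part of its transcriptome. Of 18267 genes tested with edgeR's quasi-likelihood test, 7034 were called at an adjusted p under 0.05 (38.5%), of which 3527 were higher (19.3%) and 3507 were lower (19.2%). The median log2 fold change over all tested genes was -0.02. Among the 13893 protein-coding genes tested, 46.5% were called, which is the closer background for the protein-coding groups below. WT2 against WT1, compared in the same way, gave 226 calls among 18335 genes (1.23%). The difference between the knockouts, KO2 against WT2 minus KO1 against WT1, was tested in a fit over 12 libraries and was called for 4474 of 19189 genes (23.3%), 2317 in the positive direction (12.1%) and 2157 in the negative direction (11.2%). A positive difference means that the value was more positive in KO2, whichever knockout moved. For KO1 against WT1, 17.9% of the genes tested were higher and 18.2% were lower.

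Of 117 lists of related genes written by symbol, 107 had at least 8 tested members, and 27 stood out by their median, by the share of members called or by their median difference between the knockouts. Lists were chosen with earlier results of these data known, overlap with each other, and were not tested as sets. The median log2 fold change of the other 80 lists lay between -0.34 and 0.31.

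**Figure D1:**
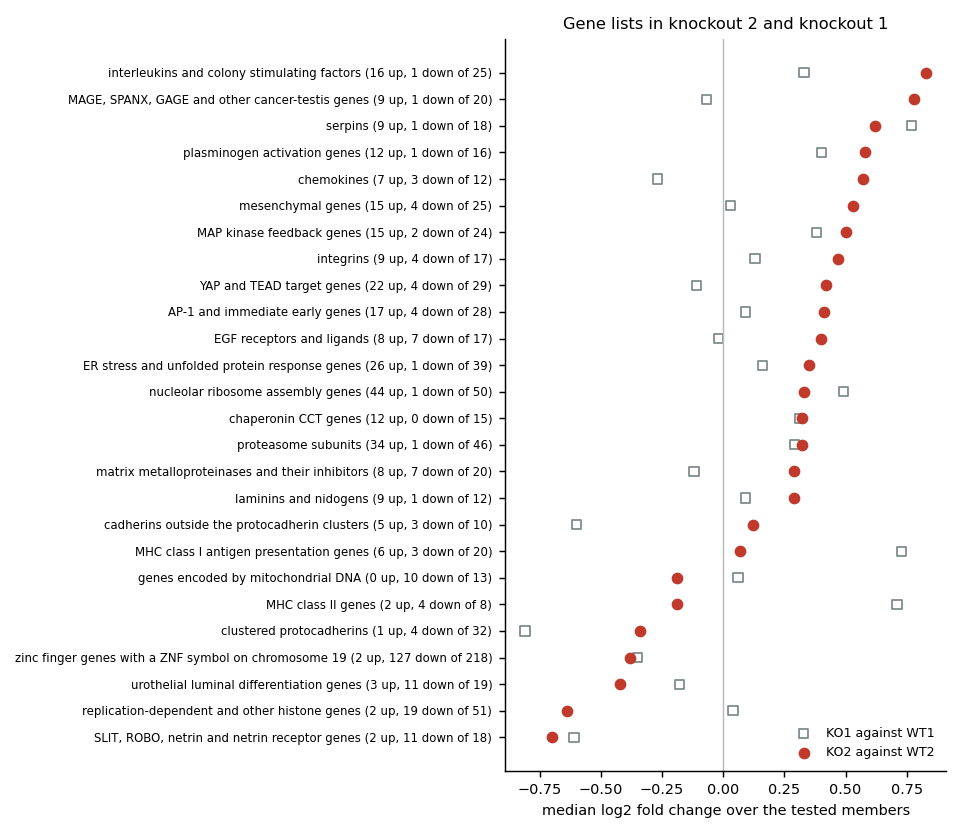
Median log2 fold change over the tested members of 26 gene lists, for KO2 against WT2 (filled circles) and KO1 against WT1 (open squares), with the number of members called higher and lower in KO2 and the number tested. The kallikreins are left out to keep the axis readable. Their medians were 2.77 over 8 tested genes in KO2 and -5.33 over 3 in KO1. Lists of secreted and signalling genes lie to the right for KO2, and histone, zinc finger and axon guidance genes lie to the left.

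YAP and TAZ are coactivators that bind TEAD transcription factors, respond to cell shape and density, and switch on genes of matrix, adhesion and growth. In KO2, 22 of 29 tested genes of this pathway and its targets were higher and 4 were lower, with a median of 0.42, against 7 higher and 10 lower and a median of -0.11 in KO1. The difference between the knockouts was positive for 18 members and negative for 0. WT2 and WT1 differed for 8 of the 29 members, with a median of -0.08 over the list, and the part of the controls in the difference was not tested. The 4 members that fell in KO2 were YAP1, WWTR1 (which encodes TAZ), TEAD3 and AMOTL1, while TEAD1, TEAD2 and TEAD4 were among those that rose. YAP1 was at 386, 373 and 388 CPM in KO2 and 481, 451 and 479 CPM in WT2 and fell by 0.30 on the log2 scale (adjusted p = 1.96e-05). TEAD3, one of the DNA-binding partners, fell by 0.49 (adjusted p = 0.000159), and the falls of YAP1 and TEAD3 in KO1 were -0.27 and -0.57. Here and below a lower level in bulk RNA can mean fewer cells with the transcript or less of it per cell, which cannot be told apart.

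Among the targets, TGFB2, a secreted ligand of the TGF-beta family at chr1:218346235-218444619 (GRCh38), was at 116, 117 and 116 CPM in KO2 and at 27.8, 26.3 and 27.5 CPM in WT2. The KO2 libraries lay close together and far above the controls, a rise of 2.09 (SE 0.04, adjusted p = 2.75e-11). KO1 was at a mean of 44.3 CPM and WT1 at 38.6 CPM, so the controls of the knockouts differed as well (WT2 minus WT1 -0.50, adjusted p = 0.00253). NT5E, the ectoenzyme that makes adenosine from AMP, was at 82.2, 83.9 and 84.2 CPM in KO2 and 13.9, 15.8 and 17.6 CPM in WT2, with no overlap. It rose by 2.40 in KO2 (SE 0.07, adjusted p = 3.23e-10) and by 1.01 in KO1. CCN1, a matricellular protein and a textbook YAP target, was at 44.5, 41.7 and 54.6 CPM in KO2 and 15.8, 15.8 and 17.2 CPM in WT2, with its highest value in KO2 library 3. The groups did not overlap and the rise was 1.52 (SE 0.09, adjusted p = 9.95e-08), while WT1 stood at 28.8 CPM and above WT2. Against all 6 control libraries the rise of CCN1 was 1.06 (adjusted p = 0.00049).

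CCN2, the connective tissue growth factor, was at 13.2, 14.2 and 17.9 CPM in KO2 and 9.94, 9.14 and 8.68 CPM in WT2. Each KO2 library was above each WT2 library, with a rise of 0.71 (SE 0.12, adjusted p = 0.000566), and KO1 moved the other way, from 12.1 CPM in WT1 to 5.46 CPM. ANKRD1, a muscle ankyrin repeat protein and YAP target, was at 7.84, 7.07 and 6.23 CPM in KO2 and 4.94, 4.72 and 3.96 CPM in WT2, a rise of 0.63 (SE 0.15, adjusted p = 0.00512). The mean of WT1 was 7.05 CPM, as high as KO2, and against all 6 controls the value was 0.28 (adjusted p = 0.291), so this call rests on the choice of WT2. In KO1 ANKRD1 stood at 0.914 CPM. The receptor tyrosine kinase AXL was at 155, 159.6 and 163 CPM in KO2 and 101, 106 and 107 CPM in WT2, with no overlap and a rise of 0.60 (adjusted p = 2.57e-07), where KO1 had -0.30. AMOTL2, an angiomotin that binds YAP, was at 85.3, 82.2 and 109.7 CPM in KO2 and 65.1, 60.1 and 55.9 CPM in WT2 and rose by 0.61 (adjusted p = 0.00026).

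TEAD factors recognise the letters GGAATG. In the 250 bases before the start of each gene in the RefSeq promoter table, GGAATG on either strand was found for 14.3% of 27305 genes and for 13.1% of the 12211 tested genes with an entry. Of the 29 tested pathway genes, 22 had an entry and 10 held the letters. The 60-base stretches below, 5′ to 3′ on the strand of the gene, show them in capitals for 4 of the genes that rose, all upstream of the start. A match is a description of the letters and not evidence of binding.
CCN2: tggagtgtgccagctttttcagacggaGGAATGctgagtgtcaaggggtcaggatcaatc
ANKRD1: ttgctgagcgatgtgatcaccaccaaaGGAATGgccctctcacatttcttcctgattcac
TGFB2: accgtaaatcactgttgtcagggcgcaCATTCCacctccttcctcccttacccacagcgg
AMOTL2: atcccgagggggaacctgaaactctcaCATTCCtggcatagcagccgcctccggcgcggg
In GRCh38.p14 these stretches lie at chr6:131951509-131951568 on the minus strand for CCN2, chr10:90921275-90921334 on the minus strand for ANKRD1, chr1:218345124-218345183 on the plus strand for TGFB2 and chr3:134374484-134374543 on the minus strand for AMOTL2. In the last 2 the letters are on the other strand and read CATTCC.

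The plasminogen system is a cascade of surface proteolysis in which urokinase (PLAU), bound to its receptor (PLAUR), turns plasminogen into plasmin, and serpins such as PAI-2 (SERPINB2) hold it back. In KO2, 12 of 16 tested genes of the system were higher and 1 was lower, with a median of 0.58 beside 0.40 in KO1, and the difference was positive for 8 and negative for 1. PLAU was at 264, 268 and 273 CPM in KO2 and 95.8, 98.6 and 96.0 CPM in WT2. The libraries of each group lay within a narrow range and the rise was 1.47 (SE 0.03, adjusted p = 4.06e-11), larger than the 0.97 of KO1 (difference adjusted p = 2.42e-05). PLAUR was at 67.8, 68.6 and 71.3 CPM in KO2 and 20.3, 23.7 and 23.0 CPM in WT2, with no overlap. It rose by 1.63 (SE 0.06, adjusted p = 2.13e-09) where KO1 rose by 0.35. PLAUR lies on chromosome 19 at 40 to 60 Mb, where the median of all tested genes was -0.05 in KO2 and -0.50 in KO1. The part of this region in the contrast was not tested. SERPINB2 was at 39.3, 37.6 and 51.8 CPM in KO2 and 12.2, 12.6 and 14.1 CPM in WT2, again without overlap, and rose by 1.73 (adjusted p = 1.91e-07). Tissue factor (F3), the starter of coagulation, was at 55.2, 53.2 and 57.6 CPM in KO2 and 34.1, 34.7 and 30.6 CPM in WT2 and rose by 0.74 (adjusted p = 1.2e-06). The single fall was PLAT, the tissue-type activator, at 66.5, 70.9 and 71.0 CPM in KO2 and 148, 156 and 142 CPM in WT2, lower in every library, and fell by 1.10 on the log2 scale (adjusted p = 6.62e-09). The controls differed for PLAUR and PLAT (WT2 minus WT1 -0.40 and 0.22, adjusted p = 0.0229 and 0.0416). The wider serpin family had 9 of 18 members higher and 1 lower, with medians of 0.62 in KO2 and 0.77 in KO1.

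AP-1, the dimer of FOS and JUN proteins, recognises TGANTCA, which reads as the same pattern on both strands. It stood in the 250 bases upstream of 8.06% of the 27305 genes and 6.49% of the tested genes, and in 7 of the 12 tested plasminogen activation genes with an entry. The 3 stretches below belong to genes that rose in KO2 and have the pattern in capitals.
PLAUR: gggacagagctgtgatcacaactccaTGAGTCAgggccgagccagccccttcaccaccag
SERPINB2: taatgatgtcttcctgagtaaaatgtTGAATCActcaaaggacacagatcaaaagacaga
F3: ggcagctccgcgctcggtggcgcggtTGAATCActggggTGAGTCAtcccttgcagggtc
They lie at chr19:43670322-43670381 on the minus strand for PLAUR, chr18:63887577-63887636 on the plus strand for SERPINB2 and chr1:94541949-94542008 on the minus strand for F3, in GRCh38.p14.

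Laminins are trimers of the basement membrane that anchor epithelia through integrins. Laminin and nidogen genes were higher in 9 of 12 cases and lower in 1 (median 0.29, 0.09 in KO1, and 0.44 in KO2 without the filter on low counts). LAMA3, an alpha chain of epithelial laminins, was at 302, 295 and 285 CPM in KO2 and 95.3, 89.8 and 92.8 CPM in WT2. Every KO2 library was far above every control, with a rise of 1.66 (SE 0.04, adjusted p = 4.06e-11), which exceeded the 0.90 of KO1 (difference adjusted p = 2.66e-07). The beta chain LAMB3 went from a mean of 154 to 194 CPM, a rise of 0.32 (adjusted p = 3.85e-05). LAMB2, another beta chain, fell by 0.63 on the log2 scale, from 69.9 to 45.4 CPM (adjusted p = 9.35e-07).

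Integrins, the transmembrane receptors for these proteins, had 9 of 17 tested members higher and 4 lower (median 0.47, and 0.13 in KO1). ITGB1, the shared beta chain, was at 976, 947 and 976 CPM in KO2 and 596, 568 and 595 CPM in WT2. No WT2 library reached the KO2 range, and the rise was 0.72 (SE 0.03, adjusted p = 4.59e-09), where KO1 had 0.11. ITGA3 rose by 0.56 from a mean of 407 to 604 CPM (adjusted p = 2.46e-08). ITGB4 rose by 0.37 from 565 to 733 CPM (adjusted p = 7.62e-07). ITGB6, the epithelial partner of the alpha V chain, fell by 0.35 on the log2 scale, from 159 to 125 CPM (adjusted p = 3.77e-05).

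**Figure D2:**
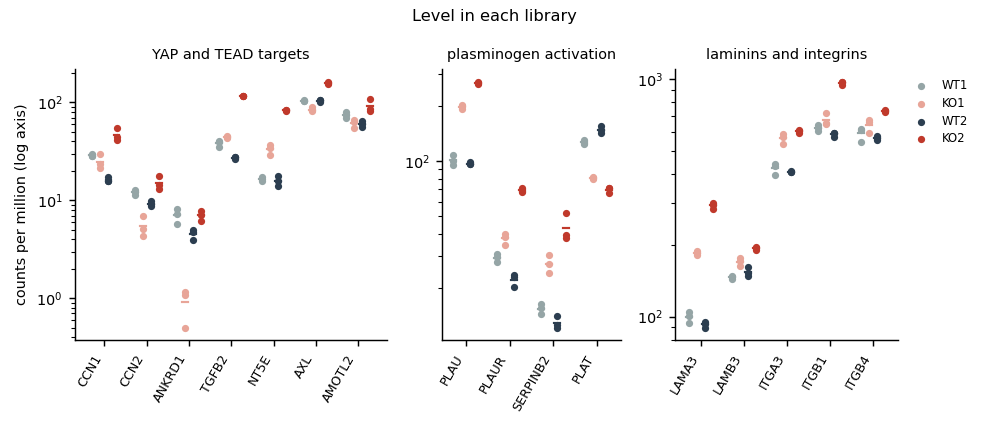
Level of YAP and TEAD targets, plasminogen activation genes and laminin chains with integrins in each library, in CPM on a log axis, for WT1, KO1, WT2 and KO2 (3 points each, the bar is the mean). KO2 libraries stand above the WT2 libraries for each gene shown except PLAT, and for ANKRD1 the WT1 libraries stand about as high as KO2.

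Matrix metalloproteinases cut collagens and other matrix proteins, and TIMPs inhibit them. The family split in KO2, with 8 of 20 members higher and 7 lower. MMP2, a gelatinase known mostly from stromal cells, was at 199, 200.1 and 209 CPM in KO2 and 108, 113 and 108 CPM in WT2 and rose by 0.88 (SE 0.04, adjusted p = 7.24e-09), where KO1 had -0.02. The membrane-bound MMP16 rose by 0.87, from 34.9 to 64.0 CPM (adjusted p = 7.31e-08). The inhibitor TIMP3 rose by 0.96, from 93.9 to 183 CPM (adjusted p = 2.16e-09). Among the members that fell, MMP1, the interstitial collagenase, was at 59.1, 63.8 and 63.0 CPM in KO2 and 193, 210.3 and 207 CPM in WT2. The groups were far apart, and MMP1 fell by 1.72 on the log2 scale (adjusted p = 1.27e-10), whereas KO1 had 0.10 (difference -1.81, adjusted p = 3.39e-11). MMP12, the macrophage elastase, was at 0.321, 0.837 and 0.532 CPM in KO2 and 16.9, 17.3 and 17.8 CPM in WT2, and fell by 4.96 on the log2 scale (adjusted p = 8.56e-09). MMP10, stromelysin-2, fell by 2.72, from 150.4 to 22.9 CPM (adjusted p = 1.5e-10), and KO1 had -2.13. For MMP16, MMP12 and MMP10 the controls differed (WT2 minus WT1 -0.30, 0.58 and 0.31, adjusted p = 0.0315, 0.0109 and 0.0127).

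The EGF family signals through EGFR and the ERBB receptors to the RAS and MAP kinase cascade. Of 17 tested receptors and ligands, 8 were higher and 7 were lower in KO2. Epiregulin (EREG) was at 159, 145 and 153 CPM in KO2 and 28.2, 26.1 and 26.5 CPM in WT2. The gap between the groups was many times the spread within them, and the rise was 2.49 (SE 0.05, adjusted p = 2.22e-11) beside 0.74 in KO1. Against all 6 control libraries the value of EREG was 2.08, and WT1 stood at 44.8 CPM. Amphiregulin (AREG) was at 60.1, 58.8 and 59.9 CPM in KO2 and 18.5, 20.7 and 19.5 CPM in WT2 and rose by 1.60 (adjusted p = 9.9e-10). AREG was lower in WT2 than in WT1 (-0.41, adjusted p = 0.0128). Heparin-binding EGF (HBEGF) was at 43.3, 40.7 and 54.0 CPM in KO2 and 12.7, 13.1 and 14.6 CPM in WT2 and rose by 1.77 (adjusted p = 6.5e-08), with 1.73 in KO1. The receptor EGFR rose by 0.49, from 329.5 to 463 CPM (adjusted p = 3.57e-06), where KO1 had -0.02. ERBB3, the kinase-poor partner of ERBB2, fell by 0.48, from 64.3 to 46.4 CPM (adjusted p = 1.54e-05). Without WT2 replicate 2 the median of this list was 0.23 in place of 0.40.

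Genes that the MAP kinase pathway induces, many of which feed back on it, were higher in 15 of 24 cases and lower in 2 (median 0.50, 0.38 in KO1). DUSP6, a phosphatase of ERK, was at 91.3, 92.1 and 117 CPM in KO2 and 42.4, 40.1 and 38.7 CPM in WT2 and rose by 1.30 (SE 0.08, adjusted p = 1.85e-07). PHLDA1 rose by 1.37, from 94.4 to 245 CPM (adjusted p = 4.41e-10), where KO1 had 0.31 and the controls differed by -0.46 (WT2 minus WT1, adjusted p = 0.00177). FOSL1, the AP-1 subunit FRA-1, was at 33.9, 36.6 and 52.3 CPM in KO2 and 11.6, 9.86 and 11.8 CPM in WT2, with library 3 of KO2 highest and no overlap. It rose by 1.88 (SE 0.14, adjusted p = 6.88e-07) and by 2.15 in KO1. ETV1, an ETS transcription factor, went down, at 1.09, 1.47 and 0.986 CPM in KO2 and 4.94, 5.19 and 6.21 CPM in WT2, and fell by 2.21 (adjusted p = 5.11e-06) where KO1 had 0.08. The list of AP-1 and immediate early genes, which shares members with this one, had 17 of 28 higher and 4 lower.

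Cytokine genes were mostly higher in KO2, and of the 27 lists only the kallikreins had a larger positive median. Of 25 tested interleukins and colony stimulating factors, 16 were higher and 1 was lower, with a median of 0.83 in KO2 and 0.33 in KO1 and 0.55 for KO2 against all 6 controls. Interleukin 1 beta (IL1B), an alarm cytokine of epithelia and myeloid cells, was at 155, 157 and 192 CPM in KO2 and 17.9, 20.5 and 21.5 CPM in WT2. Its rise of 3.07 (SE 0.09, adjusted p = 1.93e-10) exceeded the 2.07 of KO1 (difference 1.00, adjusted p = 3.73e-05), and IL1B was lower in WT2 than in WT1 (-0.54, adjusted p = 0.0112). IL11, a cytokine of the IL-6 family tied to stromal and fibrotic responses, was at 17.6, 17.3 and 15.5 CPM in KO2 and 2.31, 2.21 and 2.69 CPM in WT2 and rose by 2.80 (SE 0.12, adjusted p = 7.44e-09). IL6 itself was low, at 3.43, 4.12 and 7.04 CPM in KO2 and 0.372, 0.646 and 0.382 CPM in WT2, with no overlap and the highest value in library 3 of KO2. It rose by 3.39 (SE 0.33, adjusted p = 6.46e-06). In KO1, IL11 had 0.55 (adjusted p = 0.0532) and IL6 had 0.92 (adjusted p = 0.217). Both differences between the knockouts passed the test (adjusted p = 1.22e-06 and 0.00882). IL11 lies on chromosome 19 at 40 to 60 Mb, where the median of all tested genes was -0.05 in KO2 and -0.50 in KO1.

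Of 12 tested chemokines, 7 were higher and 3 were lower. The neutrophil attractant CXCL8 was at 404, 402 and 579 CPM in KO2 and 153, 166 and 208 CPM in WT2, and CXCL2, a ligand of the same receptor, was at 62.9, 66.2 and 93.0 CPM in KO2 and 23.8, 23.3 and 28.2 CPM in WT2. Neither showed overlap, and library 3 of KO2 was highest for both. They rose by 1.39 (SE 0.13, adjusted p = 5.76e-06) and 1.56 (SE 0.13, adjusted p = 1.52e-06), while KO1 had -0.38 and -0.39 with the opposite sign. WT2 minus WT1 was -0.48 for CXCL8 (adjusted p = 0.023). Of the 3 lower members, CXCL6 went from 7.58 CPM in WT2 to 0.0365 CPM in KO2 (-7.47, adjusted p = 2.48e-07), with -8.24 in KO1. CXCL10 had -0.78 (adjusted p = 0.0384). The median of the chemokine list, 0.57, was 0.23 without the filter on low counts and 0.12 without WT2 replicate 2.

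Cadherins join cells to each other, E-cadherin (CDH1) in epithelia and N-cadherin (CDH2) in neural and mesenchymal cells. CDH2, at chr18:27950966-28177446 in GRCh38, was at 180.4, 172 and 183 CPM in KO2 and 64.9, 63.2 and 66.0 CPM in WT2. KO2 was above WT2 in each library, with a rise of 1.46 (SE 0.04, adjusted p = 1.28e-10), and KO1 went down, from 74.5 to 39.0 CPM (-0.94, difference 2.40, adjusted p = 1.5e-12). CDH1 was at 218, 224 and 223 CPM in KO2 and 221, 221 and 223 CPM in WT2, with overlapping groups and a change of 0.00 on the log2 scale (SE 0.03, adjusted p = 0.933). The glycolipid-anchored CDH13 rose by 1.70, from 16.2 to 52.9 CPM (adjusted p = 1.24e-09), and by 1.48 in KO1. Over the family, 5 of 10 members were higher and 3 were lower, and the median of 0.12 moved between 0.07 with GC centring and 0.30 without the filter on low counts. The list of mesenchymal genes had 15 of 25 higher and 4 lower, with a median of 0.53 against 0.03 in KO1. The 3 genes of the list with the largest rises in KO2 were also higher in KO1. The intermediate filament gene VIM rose by 3.35 in KO2 and 3.98 in KO1, the collagen VI chain COL6A2 by 2.25 and 3.56, and the collagen crosslinking enzyme LOXL2 by 1.61 and 1.26 (adjusted p in KO1 = 2.81e-09, 1.22e-05 and 7.21e-06). Of the 4 lower members, LUM went from 4.535 CPM in WT2 to 0.597 CPM in KO2 (-2.93, adjusted p = 5.61e-07). SPARC went from 2.61 to 0.372 CPM (-2.82, adjusted p = 5.21e-05), and S100A4 had -0.89 (adjusted p = 0.0091). In KO1 these genes had -6.12, -4.03 and -0.82. Epithelial identity genes had 7 higher and 5 lower of 24, with a median of 0.00.

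Genes of luminal urothelial differentiation mostly went down, with 11 of 19 tested members lower and 3 higher (median -0.42, -0.18 in KO1). The 3 that rose were TMPRSS2 (0.58, adjusted p = 0.00481), KRT18 (0.25, adjusted p = 0.000382) and PPARG (0.15, adjusted p = 0.0193). GATA3, a transcription factor of the luminal urothelium, was at 32.8, 32.3 and 31.2 CPM in KO2 and 54.4, 54.0 and 53.6 CPM in WT2. It fell by 0.76 on the log2 scale (adjusted p = 1.81e-07), and the value in KO1 was -1.35 (difference 0.60, adjusted p = 7.96e-05). FABP4, a fatty acid carrier and target of PPARG, was at 15.7, 13.7 and 14.2 CPM in KO2 and 31.2, 33.4 and 36.0 CPM in WT2, and fell by 1.21 (adjusted p = 1.79e-07). Its controls differed, with 58.5 CPM in WT1. KRT19, a keratin of simple and luminal epithelia, fell by 0.42 (adjusted p = 1.81e-06), and KO1 had -0.06 (adjusted p = 0.276).

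SLIT and netrin ligands and their ROBO and UNC5 receptors guide axons and also act in epithelial adhesion and migration. Of 18 tested members, 11 were lower and 2 were higher in KO2, with a median of -0.70. KO1 was similar in its counts, with 12 lower and 2 higher and a median of -0.61. The receptor ROBO1 was at 8.19, 13.4 and 12.1 CPM in KO2 and 58.4, 53.9 and 51.6 CPM in WT2 and fell by 2.29 on the log2 scale (SE 0.13, adjusted p = 8.34e-08), with -2.53 in KO1. UNC5C, a netrin receptor, was at 0.214, 0.319 and 0.235 CPM in KO2 and 3.54, 3.03 and 3.48 CPM in WT2 and fell by 3.71 (adjusted p = 5.53e-07). SLITRK6, a neuronal-type membrane protein that bladder carcinomas can express, was at 0.536, 0.877 and 0.813 CPM in KO2 and 7.99, 7.09 and 6.57 CPM in WT2. It fell by 3.28 (adjusted p = 1.99e-07) and lies on chromosome 13 at 80 to 100 Mb, where the median was -0.29 in KO2 and -0.04 in KO1. The ligand SLIT2 separated the knockouts. It was at 2.70, 2.63 and 3.55 CPM in KO2 and 10.2, 10.1 and 8.89 CPM in WT2, fell by 1.72 (adjusted p = 2.81e-06), and had -0.30 in KO1 (difference -1.41, adjusted p = 2.13e-05). Clustered protocadherins had 1 higher and 4 lower of 32 tested. Some of their transcripts share 3′ exons within a cluster and can share reads. The median of this list, -0.34, was -0.18 without KO2 replicate 1 and -0.22 without KO2 replicate 2.

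Kallikreins are secreted serine proteases whose genes lie side by side on chromosome 19, and KLK5 to KLK10 are best known from the epidermis and other squamous epithelia. In KO2, 5 of 8 tested kallikreins were higher and 0 were lower. Among the 5 is KLK9, at 4.11, 4.52 and 4.18 CPM in KO2 and at 0 in every WT2, KO1 and WT1 library. It passed the filter on low counts through KO2 alone, so its call could not have gone the other way. KLK6, at chr19:50958631-50969673 (GRCh38), was at 31.4, 33.9 and 35.7 CPM in KO2 and 1.06, 0.915 and 0.806 CPM in WT2. KLK10, at chr19:51012739-51020175, was at 27.9, 32.0 and 32.8 CPM in KO2 and 0.922, 0.718 and 0.919 CPM in WT2. Each KO2 library was far above each WT2 library for both genes, with rises of 5.18 (SE 0.11, adjusted p = 2.84e-11) and 5.16 (SE 0.12, adjusted p = 4.06e-11). KLK5, at chr19:50943303-50953093, was at 2.45, 3.25 and 4.29 CPM in KO2 and 0.342, 0.269 and 0.481 CPM in WT2, a rise of 3.17 (adjusted p = 7.58e-06). KLK8, at chr19:50996007-51002711, was at 2.45, 1.63 and 2.08 CPM in KO2 and 0.446, 0.449 and 0.297 CPM in WT2, a rise of 2.36 (adjusted p = 9.02e-05). In KO1 the same genes were at or close to 0, with means of 0.0193 CPM for KLK6, 0.0321 CPM for KLK10 and 0 for KLK5 and KLK8, below WT1 means of 0.843, 0.753, 0.488 and 0.169 CPM. Fitted differences between the knockouts therefore depend on the prior count and hold a fall in KO1 besides the rise in KO2. Over all tested genes of chromosome 19 at 40 to 60 Mb, where these genes lie, the median was -0.05 in KO2 and -0.50 in KO1.

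MAGE-A genes are cancer-testis genes of the X chromosome, silent in most adult tissues and often expressed in carcinomas. MAGEA6 was at 73.9, 80.2 and 73.5 CPM in KO2 and 12.7, 11.4 and 12.2 CPM in WT2, and MAGEA3 was at 87.3, 84.7 and 92.3 CPM in KO2 and 26.7, 30.1 and 26.5 CPM in WT2. Both were higher in each KO2 library, by 2.64 (SE 0.06, adjusted p = 4.06e-11) and 1.66 (SE 0.06, adjusted p = 1.3e-09), and lower in KO1, by log2 fold changes of -1.24 and -1.74 (difference adjusted p = 6.86e-13 and 5.88e-11). These near-identical paralogs can share reads, so their separate values are uncertain. In the whole list of cancer-testis genes, 9 of 20 tested members were higher and 1 was lower, while 71 of 105 had no count in the 6 libraries.

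Antigen presentation set the knockouts apart through KO1. MHC class I molecules display peptides to cytotoxic T cells, and of 20 tested class I genes KO2 had 6 higher and 3 lower (median 0.07), while KO1 had 19 higher and 0 lower (median 0.73). The difference was negative for 16 members and positive for 0, and the class I median in KO2 was 0.14 without WT2 replicate 2. B2M, the light chain of class I molecules, was at 667, 662 and 666 CPM in KO2 and 753, 777 and 779 CPM in WT2, with no overlap. It fell by 0.22 on the log2 scale (SE 0.03, adjusted p = 5.87e-05), with 0.53 in KO1 (difference -0.74, adjusted p = 1.15e-06). The peptide transporter TAP2 rose in KO2 by 0.66, from 60.1 to 95.3 CPM (adjusted p = 4.12e-07). HLA genes are polymorphic and similar to each other, so reads can be lost or shared among them.

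MHC class II molecules present peptides to helper T cells, and 4 of 8 tested class II genes were lower in KO2 and 2 were higher (median -0.19, 0.71 in KO1). CIITA, their master regulator, was at 1.71, 1.55 and 1.47 CPM in KO2 and 4.76, 2.84 and 1.78 CPM in WT2, with a wide spread among the controls and no overlap. It fell by 0.99 (SE 0.31, adjusted p = 0.0254), was at a mean of 10.0 CPM in KO1, and differed between the knockouts (adjusted p = 0.000443). The call of CIITA was lost without WT2 replicate 1 (-0.55), without any single KO2 replicate (-1.05, -0.98 and -0.93) and without the filter on low counts. Without WT2 replicate 1, 3 members of the class II list were called in place of 6. The median of the class II list ran from -0.43 without WT2 replicate 2 to -0.04 without WT2 replicate 1. Interferon-stimulated genes had 9 higher and 18 lower of 54 tested in KO2 (median -0.08, 0.19 in KO1), with 20 negative and 4 positive differences.

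**Figure D3:**
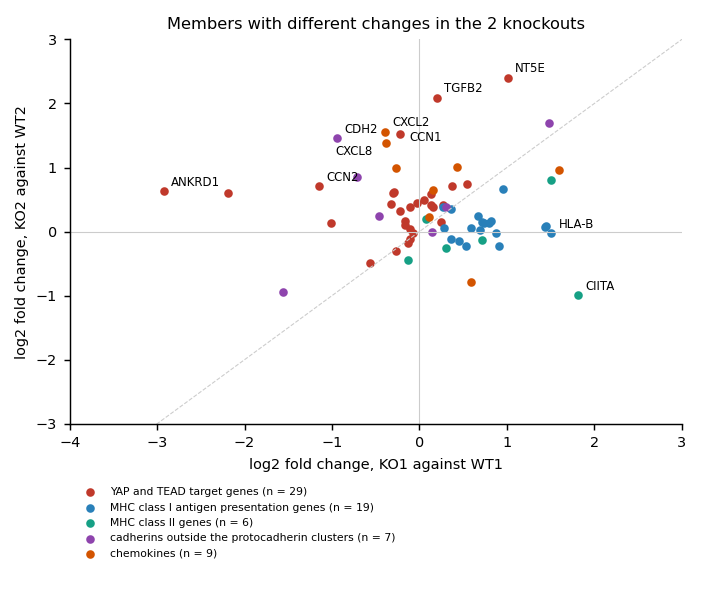
Log2 fold change of each member with a mean of at least 1 CPM over KO2 and WT2, for KO1 against WT1 (horizontal) and KO2 against WT2 (vertical), in 5 lists, with the dashed line marking equal changes. YAP and TEAD targets lie above the dashed line at ANKRD1, CCN2, CCN1, TGFB2 and NT5E, MHC class I genes lie to the right near 0 on the vertical axis, and CXCL6 is outside the axes.

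Nucleolar ribosome assembly genes were higher in 44 of 50 cases and lower in 1, with a median of 0.33 beside 0.49 in KO1. BOP1, a factor of the large subunit, was at 73.0, 75.0 and 73.2 CPM in KO2 and 44.2, 45.3 and 42.2 CPM in WT2 and rose by 0.74 (SE 0.05, adjusted p = 1.74e-07). RRP9, of the U3 particle, was at 17.0, 15.9 and 15.6 CPM in KO2 and 9.18, 10.4 and 9.74 CPM in WT2 and rose by 0.72 (adjusted p = 5.22e-05). The fall was POLR1E, a subunit of RNA polymerase I on chromosome 9, at 43.7 CPM in KO2 and 48.2 CPM in WT2 (-0.15, adjusted p = 0.0374), a call that was lost with DESeq2 (-0.14), without any single KO2 library (-0.14 to -0.15) and without WT2 replicate 2 (-0.11) or 3 (-0.14). Proteasome subunits, which form the main protein-degrading machine, were higher in 34 of 46 cases and lower in 1 (median 0.32, 0.29 in KO1). For the CCT chaperonin and prefoldin, which fold actin and tubulin, 12 of 15 genes were higher and 0 were lower, among them TCP1, from 389 to 538 CPM (0.46, adjusted p = 4.07e-07). Cytosolic ribosomal proteins, in contrast, had 5 higher and 13 lower of 84 (median -0.03).

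The unfolded protein response, which endoplasmic reticulum (ER) stress switches on, had 26 of 39 genes higher and 1 lower, with a median of 0.35 beside 0.16 in KO1, and the difference was positive for 11 and negative for 1. HYOU1, an ER chaperone, was at 215, 218 and 223 CPM in KO2 and 128, 123 and 124 CPM in WT2 and rose by 0.80 (SE 0.03, adjusted p = 7.39e-09), more than the 0.31 of KO1. SDF2L1, another ER-resident protein, was at 16.6, 18.9 and 17.6 CPM in KO2 and 10.2, 9.91 and 10.2 CPM in WT2 and rose by 0.81 (adjusted p = 1.49e-05), where KO1 had -0.26. The one fall, CREB3, an ER-bound transcription factor, is encoded on chromosome 9 (-0.19, adjusted p = 0.00602). Heat shock genes had 18 higher and 1 lower of 26 tested (median 0.30, 0.09 in KO1). WT2 and WT1 differed for 7 members of this list, with a median of -0.15 (WT2 minus WT1).

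Transcripts of the mitochondrial genome went the other way, with 10 of 13 lower and 0 higher (median -0.19), and KO1 had 0 lower and 1 higher (median 0.06). MT-CYB, of respiratory complex III, was at 2475, 2634 and 2884 CPM in KO2 and 3560, 3326 and 3326 CPM in WT2 and fell by 0.36 on the log2 scale (SE 0.05, adjusted p = 6.14e-05). MT-ND6, of complex I, was at 409, 379.8 and 393 CPM in KO2 and 511, 494 and 506 CPM in WT2 and fell by 0.36 (adjusted p = 4.5e-06), while in KO1 it rose by 0.24 (difference -0.60, adjusted p = 4.57e-06). Genes for mitochondrial ribosomal proteins, which are encoded in the nucleus, were higher in 39 of 78 cases and lower in 2.

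ANKRD10 and MYC are the genes that the study links to RBPMS. Counts per gene do not separate the ANKRD10 splice variants that the study describes, and the RNA level of MYC does not measure its activity. ANKRD10 was at 114, 108 and 116 CPM in KO2 and 197, 187 and 187 CPM in WT2, lower in each KO2 library. The fall of 0.76 on the log2 scale was smaller than that of KO1 (-1.18, difference adjusted p = 0.00016). ANKRD10 lies on chromosome 13 at 100 to 120 Mb, where the median of all tested genes was -0.15 in KO2 and -0.06 in KO1. The part of this region in the fall was not tested. MYC, the growth-promoting transcription factor, was at 154, 155 and 174 CPM in KO2 and 143, 152 and 134 CPM in WT2. The groups lay close to each other, and the value of 0.17 (SE 0.05, adjusted p = 0.032) lost its call without KO2 replicate 3, WT2 replicate 1 or WT2 replicate 3 (0.11, 0.17 and 0.12) and without the filter on low counts (0.15). Its partner MAX was at 54.0, 51.6 and 54.4 CPM in KO2 and 46.1, 50.3 and 52.3 CPM in WT2, with overlap (adjusted p = 0.179).

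Histone genes were lower in 19 of 51 tested cases and higher in 2, with a median of -0.64 in KO2 and 0.04 in KO1, and the difference was negative for 15 and positive for 2. Histones package DNA, and most are made from mRNAs that end in a stem-loop without a poly(A) tail, whereas these libraries were made from poly(A) RNA. H1-4, a linker histone, was at 0.518, 1.38 and 0.923 CPM in KO2 and 4.22, 4.65 and 2.39 CPM in WT2 and fell by 2.01 on the log2 scale (SE 0.35, adjusted p = 0.000682). H1-5 was at 0.375, 0.657 and 0.641 CPM in KO2 and 2.23, 2.19 and 1.78 CPM in WT2 and fell by 1.89 (SE 0.30, adjusted p = 0.000369). Neither overlapped between the groups, and KO1 had 0.21 and 0.16. H3-3B, a replacement histone with a polyadenylated mRNA, rose by 0.27, from 906 to 1094 CPM (adjusted p = 3.66e-05). Without WT2 replicate 2, 13 histone genes were called in place of 21. DNA replication genes had 4 higher and 15 lower of 48 (median -0.03), and mitosis genes 5 higher and 23 lower of 59 (median -0.06), and the part of the cell cycle in the histone values was not tested.

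Zinc finger genes with a ZNF symbol on chromosome 19, most of which encode KRAB repressors of transposable elements, were lower in large number. In KO2, 127 of 218 were lower and 2 were higher, with a median of -0.38. Over the whole of chromosome 19 the median log2 fold change was 0.00 in KO2 and -0.38 in KO1, so the list stood below its chromosome in KO2, while its median in KO1, -0.35, was near that of the chromosome. KO1 had 106 lower and 44 higher, and the difference between the knockouts was positive for 30 and negative for 52. ZNF genes off chromosome 19 had 95 lower and 16 higher of 230 in KO2 (median -0.20). ZNF28, at chr19:52797409-52857600 (GRCh38), was at 0.857, 0.637 and 0.673 CPM in KO2 and 7.66, 7.58 and 8.75 CPM in WT2 and fell by 3.47 on the log2 scale (adjusted p = 3.83e-08). Its neighbour ZNF468, at chr19:52838008-52890375, was at 0.678, 0.916 and 0.860 CPM in KO2 and 5.70, 5.64 and 6.46 CPM in WT2 and fell by 2.86 (adjusted p = 3.14e-07). The annotated spans of these neighbours overlap, and reads in the shared part can be hard to assign. Both rose in KO1, by 1.47 and 2.28. ZNF85, in another cluster, was at 0.643, 0.697 and 0.501 CPM in KO2 and 2.88, 3.34 and 3.60 CPM in WT2 and fell by 2.42 (adjusted p = 8.73e-06), and ZFP82, a zinc finger gene of chromosome 19 with another symbol, was at 0.107, 0.299 and 0.188 CPM in KO2 and 5.31, 3.39 and 4.64 CPM in WT2. Zinc finger genes share long repeated motifs, which can also mix reads between them.

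**Figure D4:**
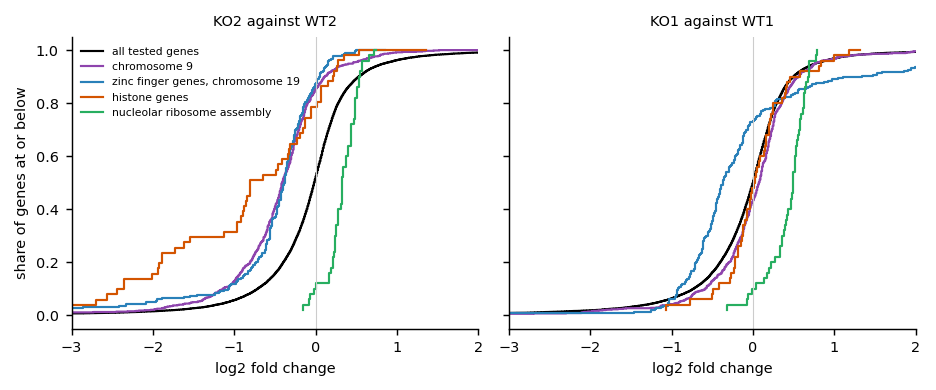
Cumulative share of genes against log2 fold change in KO2 against WT2 (left) and KO1 against WT1 (right), for all genes tested in KO2 and for 4 groups, with the axis cut at -3 and 2. Chromosome 9 genes, chromosome 19 zinc finger genes and histone genes lie left of all genes in KO2, and chromosome 9 and histone genes lie close to all genes in KO1.

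By position, chromosome 9 stood apart. Of its 724 tested genes, 398 were lower (55.0%) and 24 were higher (3.31%), and the median log2 fold change was -0.41, with -0.38, -0.37 and -0.39 in the 3 KO2 libraries against the mean of WT2. The median was 0.07 in KO1 and 0.00 between WT2 and WT1. Each of its 6 windows of 20 Mb with at least 20 tested genes had a median between -0.59 and -0.27, while the 149 windows elsewhere had medians between -0.44 and 0.27. Chromosome 13 was lower in part, with 118 of 327 genes lower and 26 higher and a median of -0.17, and its windows reached from -0.02 at 20 to 40 Mb to -0.44 at 60 to 80 Mb. Chromosome 21 was higher, with 75 of 210 genes higher and 16 lower, and had a median of 0.16 beside -0.29 in KO1. The median of the other 20 chromosomes lay between -0.10 and 0.08. Chromosome copy number was not measured here. Without the genes of chromosome 9, 3503 genes were higher and 3109 were lower in KO2, and no median of the 27 lists changed sign.

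**Figure D5:**
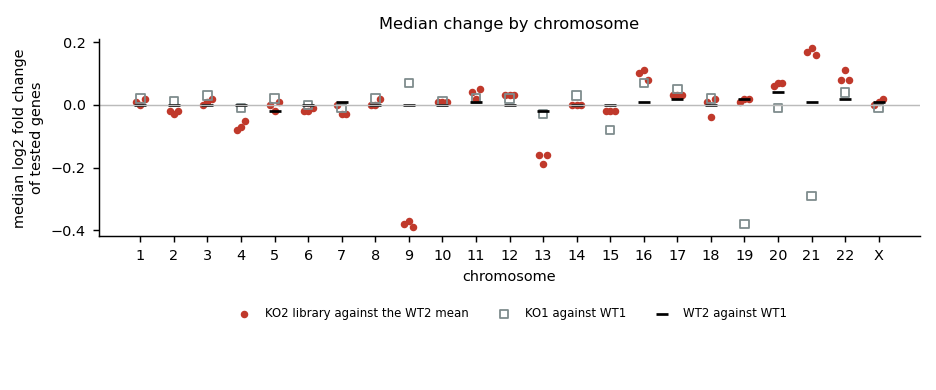
Median log2 fold change of the tested genes of each chromosome, for the 3 KO2 libraries against the mean of WT2 (filled circles), KO1 against WT1 (open squares) and WT2 against WT1 (bars). The KO2 libraries lie close to each other at chromosome 9 (-0.39 to -0.37), chromosome 13 (-0.19 to -0.16) and chromosome 21 (0.16 to 0.18).

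Some genes fell to a small part of their control level in KO2. Those named here were picked for the most negative called differences between the knockouts, so their difference from KO1 follows from the choice. MDFIC, which encodes a MyoD family inhibitor domain protein at chr7:114922154-115019202 (GRCh38), was at 0.0714, 0.159 and 0.0469 CPM in KO2 and 10.9, 8.28 and 10.8 CPM in WT2, against 11.2 CPM in KO1 and 10.4 CPM in WT1. It fell by 6.79 on the log2 scale (SE 0.30, adjusted p = 7.43e-09), and the difference between the knockouts passed the test (adjusted p = 2e-10). EMB, or embigin, a chaperone of monocarboxylate transporters at chr5:50396192-50443248, was at 0.0714, 0.0797 and 0.454 CPM in KO2 and 18.3, 18.8 and 19.9 CPM in WT2, against 13.2 CPM in KO1 (difference adjusted p = 1.06e-08). IGFBPL1, a protein like the insulin-like growth factor binding proteins, at chr9:38408994-38424447 on chromosome 9, was at 0.321, 0.179 and 0.156 CPM in KO2 and 13.8, 14.2 and 13.4 CPM in WT2, against 15.9 CPM in KO1. Its fall of 5.98 on the log2 scale lay far beyond the chromosome's median. The non-clustered protocadherin PCDH18 was at 0.143, 0.239 and 0.172 CPM in KO2 and 3.61, 3.36 and 3.24 CPM in WT2, against 5.87 CPM in KO1. CP, the copper-carrying ferroxidase ceruloplasmin, was at 3.59, 3.07 and 3.00 CPM in KO2 and 50.4, 51.8 and 45.7 CPM in WT2 and fell by 3.94 (adjusted p = 2.96e-11), while WT1 was at 24.5 CPM, below WT2.

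Some lists outside those described are given for comparison, and being outside does not mean that a list was unchanged. Collagens had 6 higher and 3 lower of 24 tested in KO2 (median 0.05). The transcription factors that drive epithelial-mesenchymal transition had 1 higher and 1 lower of 7, too few tested members to be ranked. Actomyosin and SRF target genes had 21 higher and 3 lower of 32 (75.0% called), with a median of 0.31 beside 0.09 in KO1. This was the highest median among the ranked lists that were not described. Glycolysis enzymes had 15 higher and 2 lower of 27 in KO2, with a smaller median (0.20) than in KO1 (0.41).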

How the data were processed

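Poly(A) RNA of 5637 cells was sequenced, on an Illumina instrument by the paper's methods and on an MGI instrument by its reporting summary. The authors trimmed reads and counted them per gene. The submitters' processing notes list Trimmomatic 0.36, featureCounts, Subread 1.5.1 and GRCh38, while the paper names Cutadapt, Trimmomatic, HISAT2 and StringTie. The deposited table holds raw counts of 60612 Ensembl genes, not normalized, for KO1, WT1, KO2 and WT2, and 42020 genes were given a symbol. Positions came from GENCODE v29 (58394 genes) and promoters from RefSeq (GRCh38.p14). The tables of the ANKRD10 experiments were not used here.

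Counts were analysed with edgeR 4.0.16 in R 4.3.3 (filterByExpr, minimum count 10 and minimum total count 15, TMM, quasi-likelihood test, prior count 0.125, Benjamini-Hochberg adjusted p under 0.05). KO2 against WT2 used 6 libraries, and the difference between the knockouts used 12. CPM values were scaled over the 12 libraries. With 3 libraries against 3, totals of 50776968 to 69723937 counts per library leave the precision to the spread between libraries for all but low genes, and intervals for counting error are not given. The steps were tested on simulated data.

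The members, the gene lists and the tests were chosen with earlier results of these data known. After values had been seen, 3 integrin-binding proteins, SPRYD4 and S100PBP were taken off their lists. Lists described are those with at least 8 tested members that rank among the 20 medians farthest from that of all genes, the 10 largest shares called or the 10 largest median differences between the knockouts. Named genes are RBPMS, RBPMS2, ANKRD10, MYC and MAX, up to 3 rises and 3 falls per list (called, mean of at least 1 CPM, no overlap), the 10 most positive and 10 most negative differences among protein-coding genes called in both, and defining members of a list. Not all genes that the rule allows are named, and some results are not reported here. COL1A1 is a marker of another cell type. The alternatives were RLE scaling, no filter, DESeq2 1.42.0, a replicate block, all 6 controls, one fit over 12 libraries, a prior count of 2, a threshold on fold change, GC centring in 20 bins and each replicate left out. The alternative without chromosome 9 was added after seeing the data.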

Additional observations from a re-analysis of the deposited data

Results flagged for a closer look

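The values below are some of those for which the change in KO2 against WT2 differed from the change in KO1 against WT1. The test was edgeR's interaction test over 12 libraries. Over all genes, 2317 differences were positive and 2157 were negative. Each value is the log2 fold change of KO2 minus that of KO1, among genes named in the report, and no cause was tested. Other genes named above also differed, among them LUM (3.21), TMPRSS2 (0.98), KRT18 (0.19) and CXCL10 (-1.37). Where WT2 and WT1 differed, as given above for some genes, that shift also enters the value. PLAUR, IL11 and the kallikreins lie on chromosome 19 at 40 to 60 Mb, where the median was -0.05 in KO2 and -0.50 in KO1. TMPRSS2 lies on chromosome 21 at 40 to 60 Mb, with medians of 0.27 and -0.37. The part of these regions in the differences was not tested.

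Of the genes the study is about, the difference was 0.36 for RBPMS, 0.42 for ANKRD10, -0.25 for MYC and -0.30 for MAX. Among YAP and TEAD targets it was 3.55 for ANKRD1, 1.90 for TGFB2, 1.86 for CCN2, 1.74 for CCN1, 1.39 for NT5E, 0.91 for AXL and 0.91 for AMOTL2. The differences of MYC and MAX were no longer called when some single libraries were left out. The value of ANKRD1 holds a fall in KO1 more than a rise in KO2.

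Among proteases and their regulators it was 1.28 for PLAUR, 0.91 for SERPINB2, 0.50 for PLAU, -0.44 for PLAT, 1.29 for MMP16, 0.90 for MMP2, 0.41 for TIMP3, -0.59 for MMP10, -1.81 for MMP1 and -3.13 for MMP12. For laminins and integrins it was 0.77 for LAMA3, 0.32 for LAMB2, 0.61 for ITGB1, 0.43 for ITGB6 and 0.25 for ITGB4, and for LAMB2 and ITGB6 both knockouts were lower than their controls.

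For growth factor signalling it was 1.75 for EREG, 1.05 for AREG, 1.06 for PHLDA1, 0.81 for DUSP6, 0.51 for EGFR and -2.29 for ETV1. For cytokines it was 2.47 for IL6, 2.25 for IL11, 1.95 for CXCL2, 1.78 for CXCL8 and 1.00 for IL1B. For epithelial, mesenchymal and neural-type genes it was 2.40 for CDH2, -0.62 for VIM, 1.40 for SLITRK6, 0.60 for GATA3, -0.36 for KRT19, -0.94 for FABP4 and -1.41 for SLIT2.

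The kallikreins had fitted differences of 11.01 for KLK5, 10.51 for KLK6, 9.65 for KLK10 and 8.70 for KLK8, which depend on the prior count because KO1 was at or near 0. MAGE genes had 3.89 for MAGEA6 and 3.41 for MAGEA3. Antigen presentation genes had -0.29 for TAP2, -0.74 for B2M and -2.80 for CIITA.

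Of the cell machinery, the difference was 1.07 for SDF2L1, 0.50 for HYOU1, -0.35 for CREB3, -0.53 for POLR1E, -0.42 for MT-CYB, -0.60 for MT-ND6, 0.31 for H3-3B, -2.05 for H1-5 and -2.21 for H1-4. Of the zinc finger genes and the other genes with large falls, it was -4.01 for ZNF85, -4.94 for ZNF28, -5.14 for ZNF468, -6.08 for ZFP82, -4.57 for CP, -4.69 for PCDH18, -5.82 for EMB, -6.21 for IGFBPL1 and -6.89 for MDFIC.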

How the results depend on the processing

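When a change of at least 1 on the log2 scale in either direction was also required, 435 genes were higher and 660 lower in KO2, and 597 differences between the knockouts were positive and 462 negative. Under every other alternative run, including the added one, these 4 counts stayed within 1.5 times their main values. With the replicate block 3554 genes were higher and 3530 were lower. Same-numbered KO2 and WT2 libraries correlated at 0.057, 0.059 and 0.040 in their deviations, too low to call them paired, although each library correlated best with its own number. Leaving out each replicate in turn gave 2999 to 3210 higher and 2904 to 3124 lower genes. The alternatives were run for 89 named genes, and none of these that was called reversed its direction. TMPRSS2, KRT18, PPARG, CXCL6, CXCL10, LUM, SPARC, S100A4, KLK9 and WWTR1 were among the genes not run in this way. Of 27 list medians, none changed sign, and GC centring kept the direction of each. Their sizes moved in some runs, as given above for several lists. The luminal list had -0.50 with GC centring and the replicate block in place of -0.42.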
